A study of Mus musculus with 17 samples.

Results

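Chemokines are small secreted proteins that steer leukocytes along concentration gradients, and their receptors are seven-pass membrane proteins that signal through Gi proteins. The chemokine and chemokine receptor genes of the mouse are described here in a study of ID8, a cancer line from the surface epithelium of the mouse ovary, grown in culture, at several sites in mice and as ascites. Members were matched by gene symbol, with earlier results of these data known. They were the ligands of the Ccl, Cxcl, Cx3cl and Xcl families and the signalling receptors of the Ccr, Cxcr, Cx3cr and Xcr families. The atypical receptors Ackr1 to Ackr4 and Ccrl2 were also included. The symbols matched 68 of the 43629 rows of the count table, which were 45 ligand rows, 18 receptor rows and 5 atypical receptor rows. They held 62 distinct symbols, since Ccl19, Ccl21a, Ccl21b and Ccl27a each had more than 1 row. Of the 68 rows, 63 had a count in some library and 55 passed the filter on low counts (more than 0.5 CPM, counts scaled to a common library total, in at least 2 libraries): 33 ligand, 17 receptor and 5 atypical receptor rows. The rows that did not pass were both Ccl19 rows, the 3 Ccl21b rows, 1 of the Ccl21a rows, Ccl21c, Ccl26, 2 of the Ccl27a rows, Ccl27b, Xcl1 and Ccr8.

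The series has 17 RNA-seq libraries, which fall into 8 groups. These were the ID8 line in culture (1 library), orthotopic tumours from ID8 cells placed under the bursa of the right ovary (3), subcutaneous tumours (2, numbered 2 and 3 in the labels), ascites of orthotopic mice drawn at a first tap (3) and at a second tap (3), solid tumours on the intestine that spread from the ovary (3), and healthy ovary (1) and healthy intestine (1), the last 2 labelled C57BL6. The tumours and ascites all derive from this 1 line, no group carried an engineered allele or a drug, and the labels give neither the age of the mice nor whether animals were pooled. The labels also do not say that replicates came from separate mice, so p-values measure the spread between these samples. The subcutaneous tumours are placed on the scruff in one label and on the flanks in another, and a later tap named in the protocol was not analysed here.

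A few chemokines are made constitutively by tissue cells and hold leukocytes in place, such as Cxcl12 for Cxcr4 and Cxcl13 for Cxcr5 in lymphoid follicles. Others are induced in inflammation, such as Ccl2 for the monocyte receptor Ccr2 and Cxcl1 and Cxcl2 for the neutrophil receptor Cxcr2. Tissue-specific pairs also exist, of which epithelial Ccl25 with Ccr9 on gut-homing lymphocytes is the best known, and the atypical receptors bind chemokines without signalling through Gi proteins. In ovarian cancer, macrophages drawn by Ccl2 are a prominent population of the ascites.

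Library totals ran from 12031221 to 38902048 counts, and the members held from 0.0467% of a library's counts (orthotopic replicate 2) to 0.444% (first tap replicate 2). Subcutaneous replicate 3, first tap replicate 3 and second tap replicate 1 each had counts in over 30000 genes, against 21157 to 26838 in the other libraries. The edgeR tests that use these 3 libraries were also run without them. Group means, shares, medians and counts of groups without overlap were not recomputed in that way. The subcutaneous libraries stood apart from each other, with a correlation of log values over genes of 0.804, against 0.867 to 0.960 between libraries of the other replicated groups. Listed markers of each tissue were checked against the labels. The 7 intestinal epithelium markers added up to 6622 to 20010.0 CPM in the tumours on the intestine, 15068 CPM in healthy intestine and 5.92 to 8.63 CPM in orthotopic tumours. The 7 ovarian follicle markers summed to 1658 CPM in healthy ovary and 39.9 to 56.5 CPM in orthotopic tumours. In the cell line, the 6 epithelial markers summed to 1216 CPM while 5 of the 7 macrophage markers had no count.

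The start-site sequences of 8 members are shown first. These genes carry part of the ascites and intestine results below or belong to the neutrophil-attracting Cxcl1, Cxcl2 and Cxcl3 cluster, and other called members are not printed. RefSeq start-site windows (build GRCm38.p6, a different build from the mouse build named in the submitters' processing notes) matched 46 member symbols with 55 windows. Each line gives the 250 bases before the RefSeq start, 5′ to 3′ in the direction of the gene. Cxcl11 had no entry. Capitals mark matches, on either strand, to 4 motifs: GAGGAA, the core letters bound by the myeloid factor PU.1, TTTATG, the letters bound by the intestinal factors Cdx1 and Cdx2, the 10-base NF-kB consensus, and the 10-base core of the interferon-stimulated element. None of these motifs contains another.
Ccl6, chr11:83593088-83593337, minus strand: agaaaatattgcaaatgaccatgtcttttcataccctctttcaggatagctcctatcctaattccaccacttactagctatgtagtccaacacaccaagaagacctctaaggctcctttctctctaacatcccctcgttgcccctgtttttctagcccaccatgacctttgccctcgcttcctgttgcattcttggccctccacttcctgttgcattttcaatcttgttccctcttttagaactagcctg
Ccr1, chr9:123968693-123968942, minus strand: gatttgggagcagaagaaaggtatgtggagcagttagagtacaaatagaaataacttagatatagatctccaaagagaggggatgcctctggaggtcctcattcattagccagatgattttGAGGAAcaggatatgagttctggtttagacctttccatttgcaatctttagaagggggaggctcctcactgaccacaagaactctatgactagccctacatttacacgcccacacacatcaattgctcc
Cxcr2, chr1:74153744-74153993, plus strand: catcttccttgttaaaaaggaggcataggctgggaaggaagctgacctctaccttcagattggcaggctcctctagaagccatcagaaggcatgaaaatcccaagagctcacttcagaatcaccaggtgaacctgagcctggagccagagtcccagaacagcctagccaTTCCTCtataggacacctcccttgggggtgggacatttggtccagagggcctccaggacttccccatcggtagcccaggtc
Cxcl1, chr5:90890995-90891244, plus strand: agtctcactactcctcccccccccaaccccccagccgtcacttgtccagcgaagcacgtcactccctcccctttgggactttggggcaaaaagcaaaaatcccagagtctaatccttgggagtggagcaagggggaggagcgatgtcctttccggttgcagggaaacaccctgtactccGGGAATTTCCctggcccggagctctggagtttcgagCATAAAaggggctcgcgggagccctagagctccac
Cxcl2, chr5:90903649-90903898, plus strand: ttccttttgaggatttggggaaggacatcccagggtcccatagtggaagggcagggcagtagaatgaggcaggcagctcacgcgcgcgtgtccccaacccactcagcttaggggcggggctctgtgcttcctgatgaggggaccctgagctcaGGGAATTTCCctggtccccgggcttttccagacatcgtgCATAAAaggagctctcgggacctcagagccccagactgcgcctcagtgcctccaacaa
Cxcl3, chr5:90785851-90786100, plus strand: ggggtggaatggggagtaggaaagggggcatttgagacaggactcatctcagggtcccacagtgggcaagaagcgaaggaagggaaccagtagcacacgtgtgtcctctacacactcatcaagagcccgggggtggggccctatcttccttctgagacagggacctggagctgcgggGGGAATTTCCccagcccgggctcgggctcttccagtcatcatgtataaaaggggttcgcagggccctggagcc
Ccl25, chr8:4349338-4349587, plus strand: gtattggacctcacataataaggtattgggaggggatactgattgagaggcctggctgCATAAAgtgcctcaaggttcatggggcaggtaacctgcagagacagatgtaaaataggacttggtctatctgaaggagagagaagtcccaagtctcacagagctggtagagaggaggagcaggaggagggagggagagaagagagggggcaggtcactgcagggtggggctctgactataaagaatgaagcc
Ccr9, chr9:123766961-123767210, plus strand: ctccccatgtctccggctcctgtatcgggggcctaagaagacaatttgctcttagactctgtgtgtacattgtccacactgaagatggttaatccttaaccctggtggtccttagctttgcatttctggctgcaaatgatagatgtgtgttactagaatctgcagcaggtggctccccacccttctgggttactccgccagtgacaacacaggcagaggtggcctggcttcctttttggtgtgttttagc

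Cxcl1, Cxcl2 and Cxcl3 each held the NF-kB consensus with the same letters, GGGAATTTCC, beginning 71, 97 and 73 bases before the start. Ccr1 held GAGGAA 129 bases before the start, and Cxcr2 held it on the other strand 81 bases before the start. Ccl6 and Ccr9 held none of the 4 motifs in this window. Among members called in ascites or in the tumours on the intestine but not printed, Ccr2 and Ccl28 held none either. Ccr6, in 1 of its windows, and Cxcr3 held GAGGAA, and Cxcr3 also held TTTATG. For Ccl25 the table has a pair of windows, and the one printed, chosen because it holds the match, has TTTATG on the other strand 192 bases before the start. Cxcl1 and Cxcl2 also match TTTATG on the other strand, at 35 and 58 bases before the start. The NF-kB letters were in 4 of the 55 member windows (7.27%), the fourth being that of Ccr3, and in 117 of all 32851 RefSeq windows (0.356%). GAGGAA was in 16 of 55 member windows (29.1%) and 23.3% of all windows, TTTATG in 9 of 55 (16.4%) and 10.8%, and the interferon element in 3 of 55 (5.45%) and 2.98%. These are letter matches and were not tested for binding.

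Levels below are CPM scaled by TMM (edgeR's normalization for library composition), which serve to compare a gene between libraries. To compare genes with each other, levels were divided by exonic length (GENCODE M21) and are then called CPM per kilobase. On that scale Ccl6, a mouse macrophage chemokine that signals through Ccr1, held 59.5% of the summed ligand level in the first tap and 61% in the second tap. In orthotopic tumours the first ligand was Cx3cl1, the membrane-bound chemokine fractalkine, with 24.7%, and in the tumours on the intestine Ccl6 (21.1%) came before Cx3cl1 (15.4%). Cxcl13, the B cell follicle chemokine, held 52.6% in the subcutaneous group, nearly all of it from replicate 2. In the cell line Ccl2, the monocyte attractant, held 48.3% and Cxcl12 20.3%. Cxcl17, a mucosal chemokine, led in healthy ovary with 24.6%, followed by the eosinophil attractant Ccl11 with 14.2%. Healthy intestine was led by Cx3cl1 (19.3%) and Ccl5 (19%). Among receptors, per kilobase, Ccr1 was first in both taps (30.1% and 29% of the summed receptor level). Cxcr4 was first in orthotopic tumours (41.3%), tumours on the intestine (21.7%), healthy ovary (29.4%) and healthy intestine (23.5%). Cxcr5 was first in the subcutaneous group (24.6%), and Ccr7 held 78.8% of the receptor level of the cell line. Group means weigh the replicates equally, and these shares have no test.

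**Figure D1:**
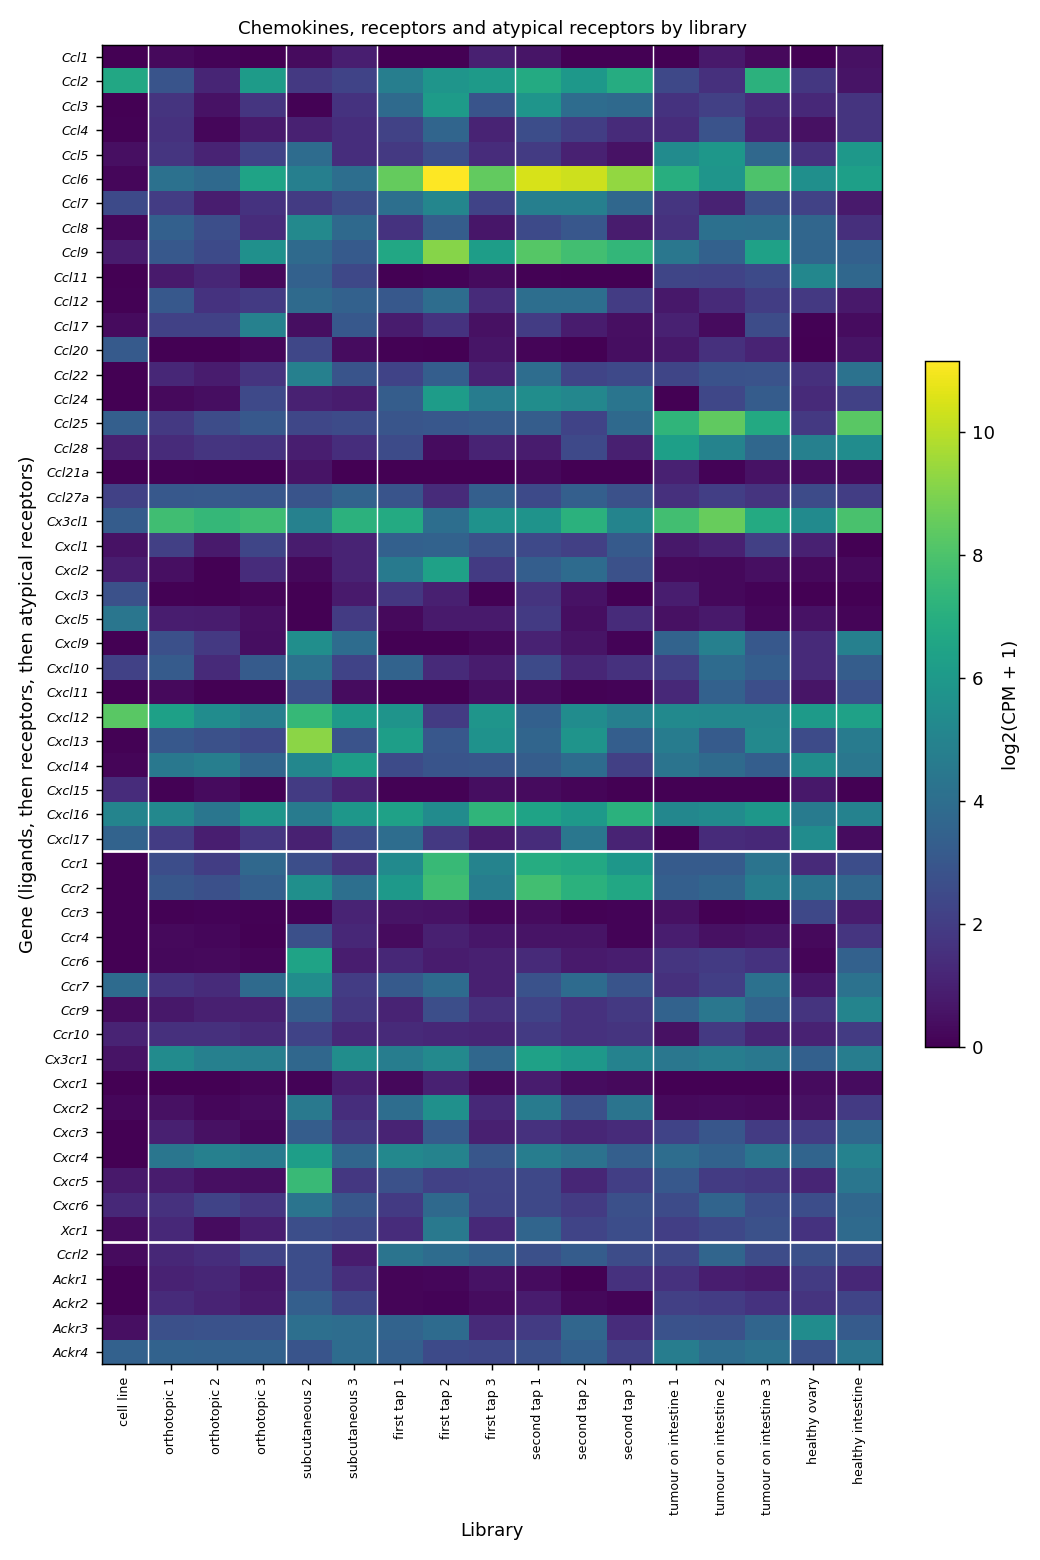
Level of 54 of the 55 member rows that passed the filter (rows: ligands, receptors, atypical receptors) in each of the 17 libraries (columns), as log2(CPM + 1). Ccl6, Ccl9, Ccr1 and Ccr2 are bright in the 6 ascites libraries, Ccl25 in the 3 tumours on the intestine and healthy intestine, and Cxcl13, Cxcr5 and Ccr6 in subcutaneous replicate 2.

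Ligands and receptors were set side by side for 36 textbook pairs, counting a pair where both genes were at 1 CPM or more in the same library. The cell line had 2 such pairs, Ccl27a with Ccr10 and Cxcl16 with Cxcr6, since few receptors reached that level there. Orthotopic tumours had 17, 13 and 16, subcutaneous tumours 21 and 27, the first tap 23, 21 and 20, the second tap 24, 22 and 19, and the tumours on the intestine 20, 23 and 23. Healthy ovary had 22 and healthy intestine 20. Cxcl16 with Cxcr6 was the pair present in all 17 libraries, and Ccl6 and Ccl9 with Ccr1, Ccl27a with Ccr10, Cxcl12 with Cxcr4 and with Ackr3, and Cx3cl1 with Cx3cr1 were present in 16. Ccl19 with Ccr7, Ccl1 and Ccl8 with Ccr8, and Xcl1 with Xcr1 were present in none. Such co-presence in a bulk library does not say which cells carried the ligand or the receptor.

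The first comparison asked how the chemokine system of ascites, the fluid with tumour and immune cells, differed from that of the orthotopic tumour. In the first tap 5 members rose and none fell, among them the ligand Ccl6 and the receptors Ccr1, Ccr2 and Cxcr2 (edgeR quasi-likelihood test, Benjamini-Hochberg adjusted p under 0.05 over all 22671 genes tested). The background was 358 of 22671 genes called (1.58%), with 0.688% higher and 0.891% lower. In the second tap 4 of these members rose, Ccl6, Ccr1 and Ccr2 among them, and none fell, against 248 genes called (1.09%), with 0.516% higher and 0.578% lower. The 2 comparisons share the same 3 orthotopic libraries. The median log2 difference of the 55 rows was 1.33 in the first tap and 1.23 in the second, against 0.18 and 0.13 over all genes tested. The receptors had a median of 2.67 in the first tap and 1.68 in the second, and the ligands 0.96 and 1.04. In the first tap 19 of the 55 rows lay above all orthotopic libraries without overlap, where 13.6% of all genes did, and 8 lay below them, where 11% did. In the second tap 21 of 55 lay above, where 18.8% did, and 4 below, where 12.5% did. The rows below in the first tap included 3 of the 5 atypical receptors, against 1 in the second.

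Ccl6 was at 17, 13 and 88.5 CPM in the orthotopic tumours, 361, 2272 and 354 CPM in the first tap and 1422, 1263 and 655 CPM in the second. All 6 ascites libraries lay above all 3 orthotopic libraries, of which replicate 3 was the highest. The log2 difference from the orthotopic group was 4.65 ± 1.02 (SE, adjusted p = 0.0446) in the first tap and 4.82 ± 1.02 (adjusted p = 0.0487) in the second, both by edgeR. Ccl9, a second mouse ligand of Ccr1 encoded beside Ccl6, read 7.37, 4.72 and 46.9 CPM in orthotopic tumours, 102, 549 and 72.8 CPM in the first tap and 299, 217 and 166 CPM in the second. Its groups did not overlap in either tap, but it missed the threshold, with an adjusted p of 0.107 and 0.135 by edgeR. Their receptor Ccr1, carried by monocytes, macrophages and neutrophils, was at 5.19, 3.12 and 12.8 CPM in orthotopic tumours, 39, 184 and 31.1 CPM in the first tap and 117, 104 and 59.7 CPM in the second. It rose by 3.59 ± 0.79 on the log2 scale in the first tap (edgeR adjusted p = 0.0459) and 3.73 ± 0.79 in the second (edgeR adjusted p = 0.0487). First tap replicate 2 was the highest of the ascites libraries for Ccl6, Ccl9 and Ccr1.

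Ccr2, the receptor of inflammatory monocytes, was at 7.01, 5.65 and 9.24 CPM in orthotopic tumours and 63.6, 212 and 25.2 CPM in the first tap, a log2 difference of 3.78 ± 0.76 (edgeR adjusted p = 0.0363). In the second tap it read 219, 139 and 101 CPM, a log2 difference of 4.39 ± 0.78 (edgeR adjusted p = 0.0375). Every ascites library was above every orthotopic library. Its ligands did not pass the test in either tap. Ccl2 spread widely within the orthotopic group, at 6.41, 1.2 and 67.9 CPM, so that replicate 3 overlapped the first tap (25.9, 54.5 and 67.1 CPM) and the second (112, 60.3 and 119.9 CPM). Ccl7, a neighbour of Ccl2 that shares Ccr2, read 2.91, 0.831 and 2.11 CPM in orthotopic tumours, 15.7, 33.9 and 3.67 CPM in the first tap and 27.1, 26.9 and 12.4 CPM in the second, with no overlap in either tap. Its adjusted p was 0.0764 in the first tap and 0.0725 in the second by edgeR. Ccl12 and Ccl8, which the textbook pairs used here also set with Ccr2, overlapped between the groups. The orthotopic libraries spanned 2.06 to 7.42 CPM of Ccl12 and 1.68 to 9.84 CPM of Ccl8, and the ascites libraries 1.61 to 15.4 and 0.612 to 8.77 CPM.

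Ccl3 (macrophage inflammatory protein 1 alpha), which also binds Ccr1, read 2.15, 0.465 and 2.26 CPM in orthotopic tumours, 13.4, 69.2 and 6.35 CPM in the first tap and 54.8, 14.2 and 13 CPM in the second. It lay above all orthotopic libraries in both taps without passing the test (edgeR adjusted p = 0.097 and 0.125). Ccl4 (orthotopic tumours 0.133 to 2.02 CPM, ascites 1.15 to 11.6 CPM) and Ccl5 (1.13 to 3.71 and 0.477 to 5.37 CPM) overlapped.

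Cxcr2 is the main receptor of neutrophils for Cxcl1, Cxcl2, Cxcl3 and Cxcl5. It was at 0.415, 0.133 and 0.263 CPM in orthotopic tumours, 14.9, 48 and 1.45 CPM in the first tap and 23.9, 5.63 and 18.4 CPM in the second. Ascites libraries all exceeded the orthotopic ones but spread widely among themselves. The log2 difference was 6.27 ± 1.3 in the first tap (edgeR adjusted p = 0.0391) and 5.85 ± 1.27 in the second, where it missed the threshold (edgeR adjusted p = 0.0525). Cxcl2, its ligand made by activated macrophages, read 0.363, 0 and 1.63 CPM in orthotopic tumours, 22.4, 82.9 and 2.68 CPM in the first tap and 9.03, 14 and 5.8 CPM in the second, without overlap. Its adjusted p was 0.0699 in the first tap and 0.181 in the second by edgeR. Cxcl1, whose start-site window holds the same NF-kB letters as that of Cxcl2, read 3.37, 0.731 and 3.97 CPM in orthotopic tumours, 9.61, 10.5 and 5.89 CPM in the first tap and 4.44, 3.26 and 7.82 CPM in the second. Cxcl3 and Cxcl5 stayed low, at no more than 2.55 and 2.75 CPM in ascites. Cxcr1 had at most 1.06 CPM there.

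The marker lists moved with these results. The 7 macrophage markers summed to 237 to 387 CPM in orthotopic tumours, 1285 to 8759 CPM in the first tap and 2380.4 to 4324 CPM in the second, with none of the 7 at 0 in any of these libraries. The highest sum was in first tap replicate 2, the library with the highest Ccl6, Ccl9, Ccr1 and Cxcr2 of all 17. The 6 neutrophil markers summed to 3.56 to 7.05, 28.4 to 538 and 52 to 213 CPM in the same order of groups. Ly6g, a defining neutrophil marker, had no count in the orthotopic libraries and read 0.0274, 1.44 and 0.191 CPM in the first tap and 0.207, 0.172 and 0.147 CPM in the second. In bulk RNA, fewer cells of a type and less RNA per cell cannot be told apart, and the part of these cells in the results was not tested.

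Single libraries decided several of these calls. In the first tap 0 members were called without orthotopic replicate 1, orthotopic replicate 2 or first tap replicate 2, 1 without orthotopic replicate 3 (Ccl6) or first tap replicate 1 (Ccr2), and 8 without first tap replicate 3. In the second tap 0 members were called when any 1 of the 6 libraries was left out. Calls over all genes moved as well, to between 18 and 793 in the first tap and between 1 and 76 in the second. With all libraries they were 358 and 248. None of the called members reversed its direction in these settings. Without the 3 libraries with counts in over 30000 genes, 13 members were called in the first tap (11 higher, 2 lower, including the 5 above) and 4 in the second (among them Ccr2 and Cxcr2 higher and the atypical receptor Ackr2 lower). With relative log expression factors in place of TMM, 5 members were called in the first tap and 2 in the second, and without the filter on low counts 2 in each tap, with Ccr2 among them in all these settings. The counts without the 3 libraries, with these factors and without the filter have no share of all genes beside them here. They show only how far the member calls moved. DESeq2 called 19 members in the first tap, where it called 11.4% of all genes, 14 of them higher (7.09% of all genes) and 5 lower (4.34%). In the second tap it called 13 members, against 8.91% of all genes, 12 of them higher (4.8% of all genes) and 1 lower (4.12%). Ccl3, Ccl7, Ccl9, Ccl24 and Cxcl2 were among those called in both taps.

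**Figure D2:**
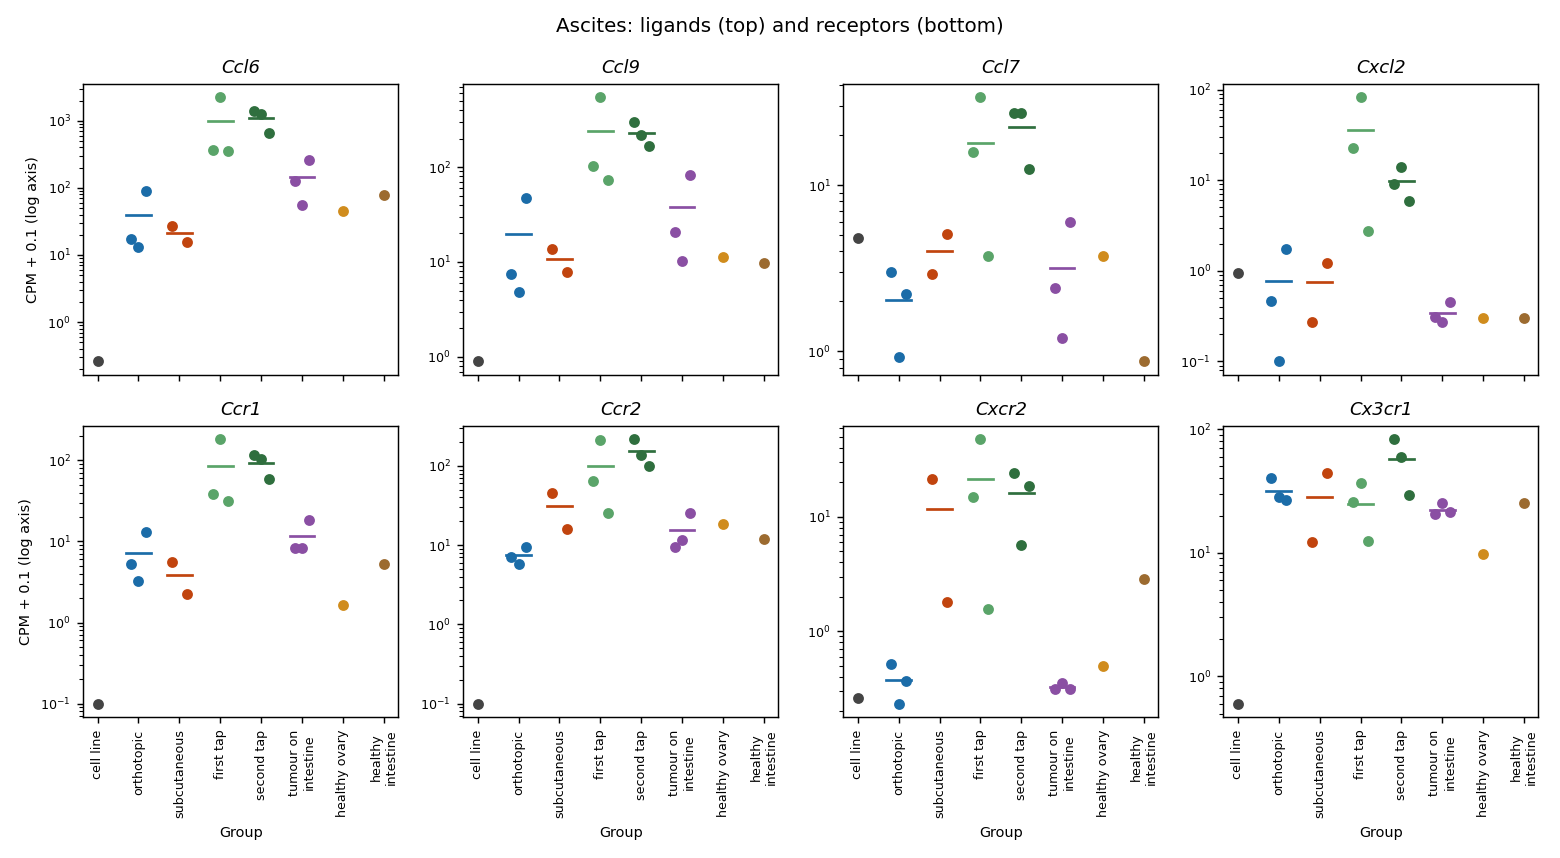
Level of 4 ligands (top) and 4 receptors (bottom) in each library, as CPM + 0.1 on a log axis, by group, with a line at the mean of groups of more than 1 library. The 6 ascites libraries lie above the 3 orthotopic libraries for every gene shown except Cx3cr1.

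Some members lay lower in ascites. Cxcl9, an interferon-induced ligand of Cxcr3, read 5.66, 2.63 and 0.316 CPM in orthotopic tumours and 0, 0 and 0.191 CPM in the first tap (edgeR adjusted p = 0.0763). The second tap overlapped with the orthotopic tumours for Cxcl9, since its replicate 1 reached 1 CPM or more, above orthotopic replicate 3. Cxcl14, a chemokine of epithelia and fibroblasts, read 21.2, 26.3 and 11.5 CPM in orthotopic tumours, 4.79, 6.35 and 6.92 CPM in the first tap and 8.76, 13.7 and 3.34 CPM in the second. It did not overlap with the first tap (edgeR adjusted p = 0.109). Ccl11 read 0.727, 1.3 and 0.211 CPM in orthotopic tumours and 0.0592, 0 and 0 CPM in the second tap (edgeR adjusted p = 0.0769). Ackr2, a scavenger of inflammatory CC chemokines found on lymphatic endothelium, read 1.58, 1.16 and 0.737 CPM in orthotopic tumours and 0.11, 0.0756 and 0.306 CPM in the first tap (edgeR adjusted p = 0.109). The 6 endothelial markers summed to 262 to 441 CPM in orthotopic tumours, 19 to 46.6 CPM in the first tap and 21.6 to 48.4 CPM in the second. The 4 lymphatic endothelial markers did not fall, at 229 to 323, 220 to 895 and 345 to 575 CPM in the same order of groups. They also summed to 299 CPM in the cultured line, so this sum does not follow lymphatic endothelium alone. None of these 4 members passed the test with the 17 libraries.

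The taps were also compared with each other, which bears on change over time in the ascites. No member and no gene passed the adjusted threshold in edgeR (background 0 of 22671, 0%), while 2 members and 145 genes had an unadjusted p under 0.05 and DESeq2 called 0 members and 1 gene (0.00441%). The 2 members were Cx3cr1, the fractalkine receptor of monocytes and macrophages, and Cxcl9. Cxcl9 averaged 0.0211 CPM per kilobase in the first tap and 0.183 in the second. Cx3cr1 read 25.4, 36.7 and 12.3 CPM in the first tap and 83.3, 59.7 and 29.5 CPM in the second, with overlap. Ccrl2, an atypical receptor of activated myeloid cells, read 18.3, 14.6 and 9.68 CPM in the first tap and 5.65, 8.46 and 4.99 CPM in the second, with no overlap (log2 difference -1.15 ± 0.66, SE). Spread within the first tap was wide, since Ccl6 alone spanned 354 to 2272 CPM there.

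The next comparison set the tumours on the intestine against the orthotopic tumours, the kind of primary tumour that the labels give as their origin. Here 7 members rose and none fell by edgeR: the ligands Ccl25, Ccl28, Ccl5 and Cxcl11 and the receptors Ccr9, Ccr6 and Cxcr3. The background was high, with 3517 of 22671 genes called (15.5%), 2354 of them higher (10.4%) and the rest lower (5.13%), and 7 of 55 rows is near that share. The median log2 difference of the 55 rows was 1.00, against 0.06 over all genes. In 21 of the 55 rows the tumours on the intestine lay above all orthotopic libraries, where 24.4% of all genes did.

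Ccl25, the small-intestinal epithelial chemokine, was at 2.65, 5.09 and 7.32 CPM in orthotopic tumours and 156, 347 and 107 CPM in the tumours on the intestine. The log2 difference was 5.34 ± 0.61 (edgeR adjusted p = 4.62e-04), and healthy intestine stood at 314 CPM. Its receptor Ccr9, which marks gut-homing T cells, was at 0.623, 0.997 and 0.947 CPM in orthotopic tumours and 10.5, 20.6 and 11 CPM in the tumours on the intestine, with healthy intestine at 31.7 CPM. It rose by 4.03 ± 0.69 on the log2 scale (edgeR adjusted p = 0.00324). Ccl25 and Ccr9 passed in all 10 alternative settings, Ccl5 in 7, Ccl28 in 6, Cxcr3 in 5, Ccr6 in 4 and Cxcl11 in 2. Of the exonic bases of Ccr9, 21.7% overlap exons of other genes, mostly on the other strand and including Slc6a20a, and whether counting used strand is not given in the sources used here.

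Ccl28, a mucosal chemokine for Ccr10 on plasma cells, read 1.61, 2.26 and 2.13 CPM in orthotopic tumours and 78.5, 30.8 and 12.1 CPM in the tumours on the intestine, a log2 difference of 4.33 ± 1.04 (edgeR adjusted p = 0.0173). Healthy intestine read 41.6 CPM and healthy ovary 28.4 CPM. Ccr10 itself read 1.95, 1.89 and 1.5 CPM in orthotopic tumours and 0.42, 2.63 and 1.25 CPM in the tumours on the intestine, with overlap. Ccl5, made by T and NK cells, was at 2.28, 1.13 and 3.71 CPM and 41.1, 59.3 and 12.5 CPM in the same groups, a log2 difference of 3.98 ± 0.94 (edgeR adjusted p = 0.0168). Ccr1, a receptor of Ccl5, read 8.19, 8.32 and 18.5 CPM in the tumours on the intestine and did not pass the test.

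Of the 3 interferon-induced ligands of Cxcr3, a receptor of effector T cells, 1 passed. Cxcl11 read 0.234, 0 and 0.0526 CPM in orthotopic tumours and 1.47, 9.93 and 5.37 CPM in the tumours on the intestine, a log2 difference of 5.78 ± 1.67 (edgeR adjusted p = 0.0366). An antisense gene, Gm2673, overlaps 41.7% of its exonic bases. Cxcl9 was at 10.7, 27.7 and 7.37 CPM and Cxcl10 at 3.25, 14 and 9.04 CPM in the tumours on the intestine, against 5.66, 2.63 and 0.316 and 8.12, 1.53 and 8.24 CPM in orthotopic tumours, and neither passed the test (edgeR adjusted p = 0.166 and 0.74). Cxcr3 was at 0.96, 0.432 and 0.158 CPM in orthotopic tumours and 3.78, 6.92 and 2.78 CPM in the tumours on the intestine, without overlap, and rose by 3.11 ± 0.93 (edgeR adjusted p = 0.0416). Ccr6, a receptor of B cells and Th17 cells, rose from 0.182, 0.199 and 0.105 CPM to 2.31, 2.67 and 2.1 CPM (log2 difference 3.84 ± 1.1, edgeR adjusted p = 0.0355). Its ligand Ccl20, of the epithelium over gut lymphoid follicles, read 0, 0 and 0.158 CPM and 0.63, 1.95 and 1.17 CPM and did not pass (edgeR adjusted p = 0.1).

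Against healthy intestine, no member passed in edgeR (background 0 of 22671 genes, 0%). Unadjusted, 3 members and 584 genes had p under 0.05, and DESeq2 called 0 members and 45 genes (0.198%). Healthy intestine was 1 library, so that its spread was taken from the other groups and this comparison has no replicate check on that side. The 3 were Cxcl1, Cxcr1 and Cxcr2. Cxcl1 had no count in healthy intestine and read 0.63, 1.02 and 3.27 CPM in the tumours, whose mean was at least 10.7-fold higher and whose lowest library at least 4.09-fold higher than the level 3 counts would give there. Ccl2 read 4.3, 1.91 and 145 CPM in the tumours, high in replicate 3 only, and 0.513 CPM in healthy intestine. Of the 55 rows, 20 lay below healthy intestine in all 3 tumours and 10 above it, where 23.2% and 19.7% of all genes did. Among the 33 ligands 5 lay below and 9 above. Of the 17 receptors, 14 were lower in all 3 tumours than in healthy intestine and 1 higher, the 14 including Ccr9 (31.7 CPM in healthy intestine), Cxcr3 (12.2 CPM) and Ccr6 (10.0 CPM).

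Other cell types moved with the intestine results. All 7 intestinal epithelium markers were detected in every tumour on the intestine, and their summed level, given above, spanned that of healthy intestine. Cdx1 and Cdx2, which define intestinal epithelium, read 219, 62 and 59.8 and 444, 197 and 75.1 CPM in these tumours, and 79.3 and 140.2 CPM in healthy intestine. The 7 T cell markers summed to 90.4 to 342 CPM in the tumours on the intestine, 346 CPM in healthy intestine and 4.71 to 12.1 CPM in orthotopic tumours. In the same order the 6 NK cell markers summed to 35.8 to 167, 96.5 and 1.06 to 1.71 CPM. The 6 B cell markers summed to 31.7 to 68.9, 235 and 5.89 to 6.85 CPM. Not every list rose, since the 6 endothelial markers summed to 97.2 to 170 CPM in the tumours on the intestine and 262 to 441 CPM in orthotopic tumours. The part of gut tissue in these values was not tested. The call count was 2 without orthotopic replicate 1 or 2 (Ccl25 and Ccr9). It was 3 without orthotopic replicate 3, intestine tumour replicate 1 or replicate 2, and 6 without intestine tumour replicate 3. Calls over all genes in these fits ran from 1211 to 4085, against 3517 with all libraries. The member counts show only how far the calls moved. DESeq2 called 13 members and 26.4% of all genes here, a larger share than 13 of 55.

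**Figure D3:**
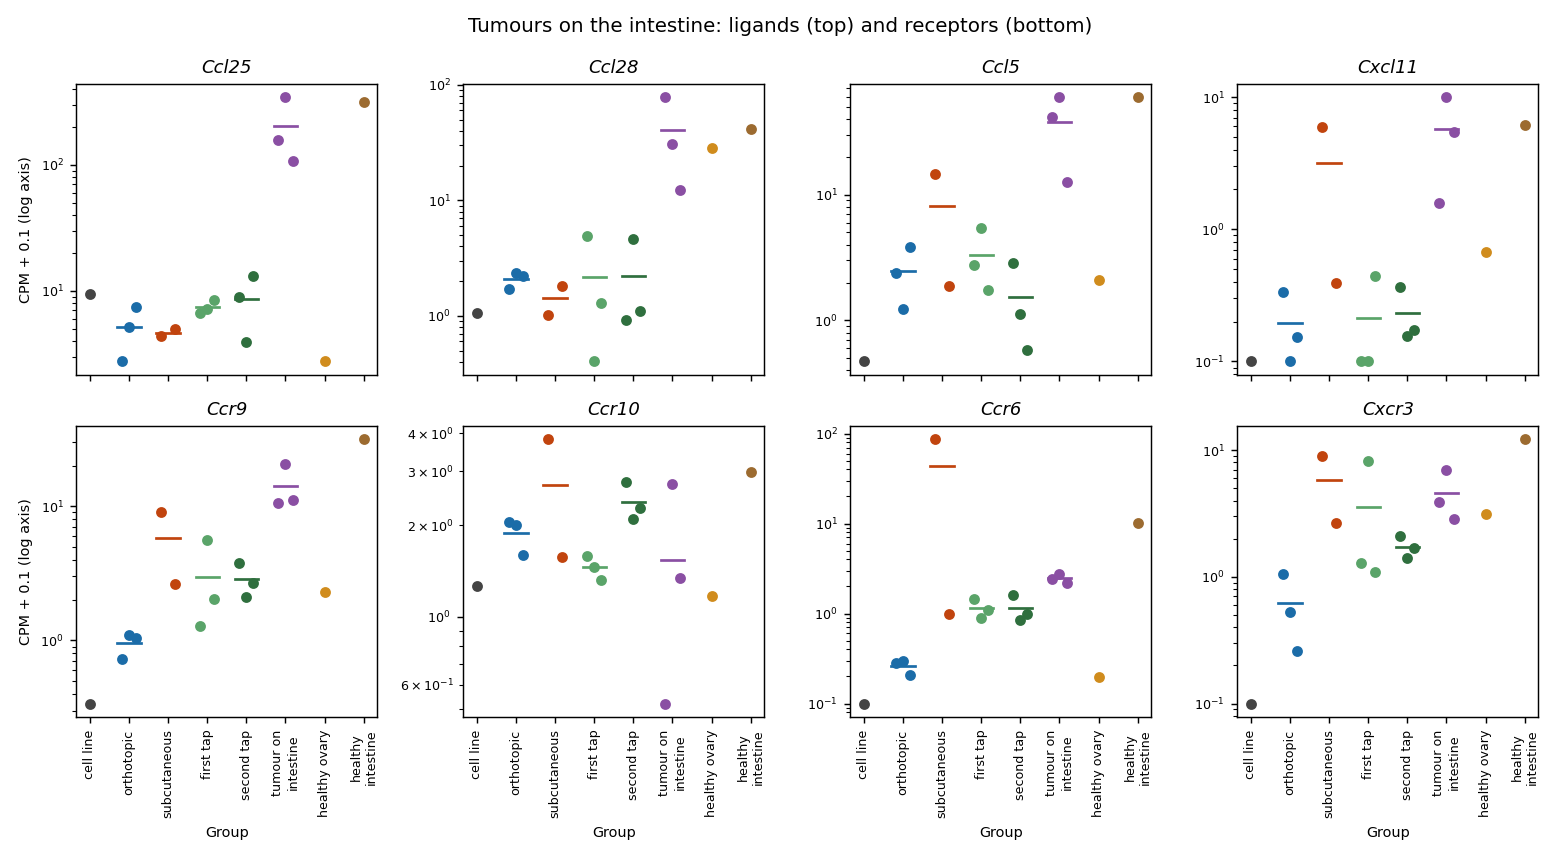
Level of 4 ligands (top) and 4 receptors (bottom) in each library, as CPM + 0.1 on a log axis, by group, with a line at the mean of groups of more than 1 library. The 3 tumours on the intestine lie above the 3 orthotopic tumours for every gene shown except Ccr10.

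Subcutaneous tumours were compared with orthotopic tumours as a pair of sites for the same injected cells. No member passed the adjusted threshold in edgeR, where 3 of all genes did (background 0.0132%). Unadjusted, 20 members and 4690 genes had p under 0.05, and DESeq2 called 12 members, all higher, where it called 10.1% of all genes and 7.87% higher. The median log2 difference was 1.46 over the 55 rows, 2.45 over the receptors and 0.25 over all genes. In 24 of the 55 rows both subcutaneous libraries lay above all orthotopic libraries, where 23% of all genes did.

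The largest differences were in 1 library. Ccr6 was at 87.1 and 0.884 CPM in subcutaneous replicates 2 and 3 and 0.182, 0.199 and 0.105 CPM in orthotopic tumours (log2 difference 8.06 ± 1.31, edgeR adjusted p = 0.0532). Cxcr5, the receptor that brings B cells to follicles, was at 189.8 and 2.5 CPM and 0.805, 0.366 and 0.342 CPM in the same groups (log2 difference 7.56 ± 1.33, edgeR adjusted p = 0.0532). Its ligand Cxcl13 was at 598 and 6.23 CPM in the subcutaneous replicates and 7.29, 5.75 and 4.47 CPM in orthotopic tumours, so that replicate 3 lay inside the orthotopic range. The lymphocyte receptors Ccr7 (43.5 and 2.95 CPM in the subcutaneous replicates, 2.08, 1.6 and 13.3 CPM in orthotopic tumours) and Cxcr4 (74.3 and 11.6 and 20.0, 28.2 and 23.2 CPM) were also high in replicate 2 and inside or below the orthotopic range in replicate 3.

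In replicate 2 the 6 B cell markers summed to 1998 CPM, against 9.03 CPM in replicate 3 and 5.89 to 6.85 CPM in orthotopic tumours. Among them Cr2, a marker of mature B cells and follicular dendritic cells, read 579 and 4.71 CPM in the subcutaneous replicates. Replicate 2 also held 4183 CPM of the 5 adipocyte markers against 19.9 CPM in replicate 3, while replicate 3 held 738 CPM of the 6 keratinocyte markers against 65 CPM. The part of lymphoid tissue in the values of replicate 2 was not tested. With either subcutaneous library left out, the other stands alone and is assumed to vary like the other groups. Of these fits, only the one that kept replicate 2 called members, and such calls have no replicate check.

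Members that were high in both subcutaneous libraries included Ccl22, a ligand of Ccr4 made by dendritic cells and macrophages, at 28 and 6.53 CPM against 1.35, 0.798 and 2.24 CPM (edgeR adjusted p = 0.0829). Ccr4, the receptor of regulatory and Th2 T cells, was at 5.64 and 1.37 CPM against 0.208, 0.133 and 0 CPM (edgeR adjusted p = 0.0776). Cxcr2 was at 21.5 and 1.72 CPM against 0.415, 0.133 and 0.263 CPM, and Ccr2 at 46 and 15.7 CPM against 7.01, 5.65 and 9.24 CPM. Of the Cxcr3 axis, Cxcl9 was at 44.8 and 14.5 CPM against 5.66, 2.63 and 0.316 CPM and Cxcr3 at 8.86 and 2.55 CPM against 0.96, 0.432 and 0.158 CPM. The stromal ligands Ccl11 (9.94 and 4.32 against 0.727, 1.3 and 0.211 CPM) and Cxcl14 (35 and 73.4 against 21.2, 26.3 and 11.5 CPM) followed the same order. Cx3cl1 was the 1 member whose subcutaneous libraries both lay below the orthotopic ones, at 29.1 and 141 CPM against 211, 169 and 203 CPM. None of these 9 members passed the test with both subcutaneous libraries in the fit.

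**Figure D4:**
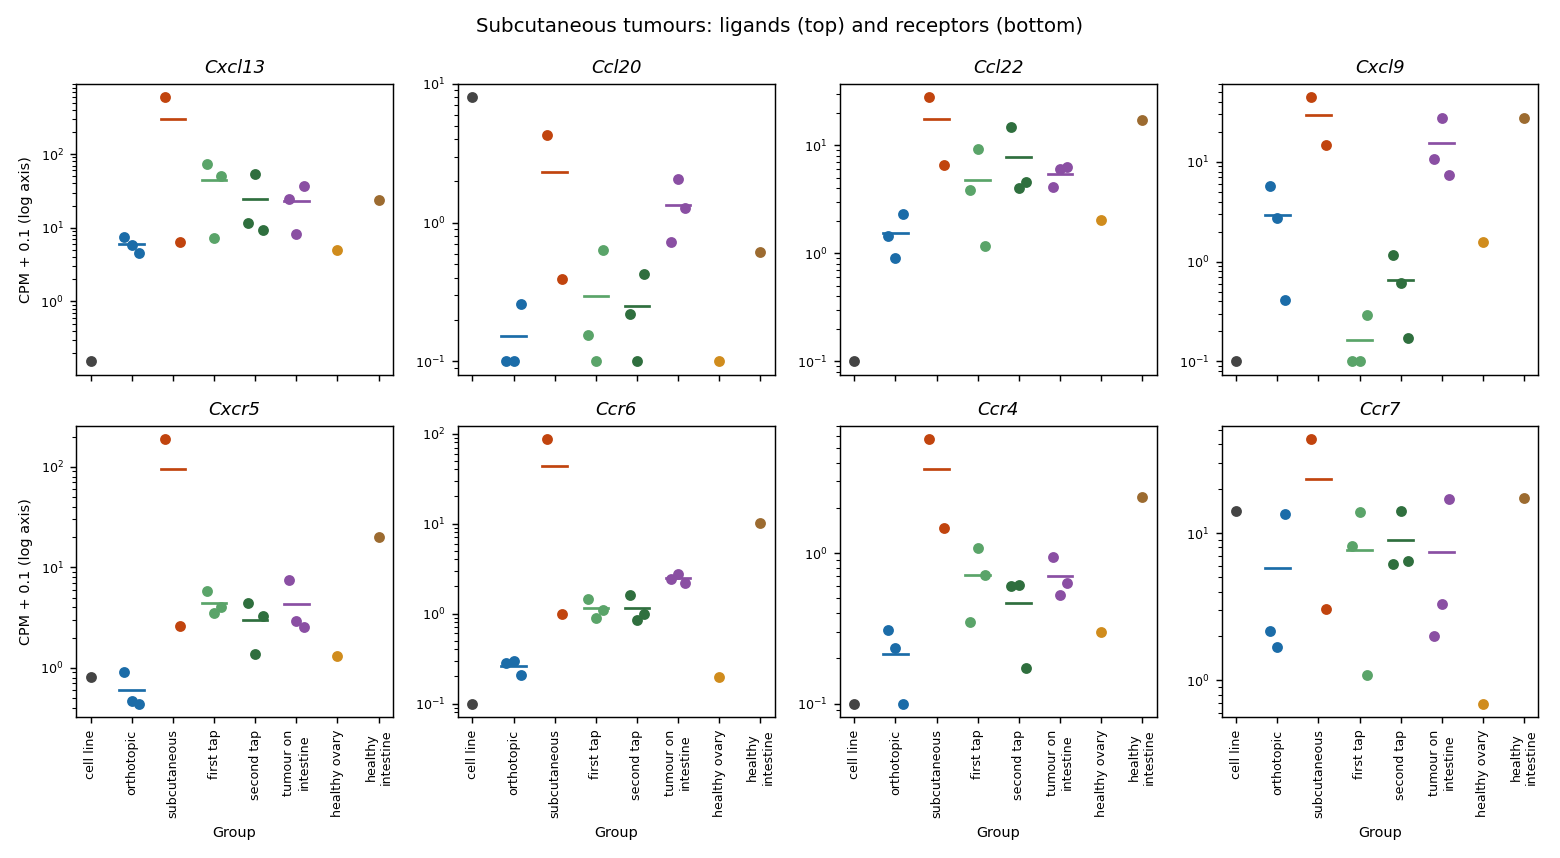
Level of 4 ligands (top) and 4 receptors (bottom) in each library, as CPM + 0.1 on a log axis, by group, with a line at the mean of groups of more than 1 library. The subcutaneous point at the top of the Cxcl13, Cxcr5 and Ccr6 panels is replicate 2, and replicate 3 lies well below it.

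The orthotopic tumours were compared with the cultured line they came from, which was 1 library with no replicate check. In edgeR 6 members were higher in the tumours and none lower, among them Cxcl14, Cxcr4, Cx3cr1, Ccr2 and Ccr1. The background was 726 of 22671 genes (3.2%), 537 of them higher (2.37%) and the rest lower (0.834%). All 3 tumours lay above the line in 34 of the 55 rows, where 37.4% of all genes did, and below it in 10, where 32.2% did. With genes that had no count in the line set to their lower bound, the median log2 difference of the 55 rows was 2.67, and it was 3.83 as fitted. Cxcr4, the receptor of Cxcl12, had no count in the line and read 20.0, 28.2 and 23.2 CPM in the tumours, whose mean was at least 299-fold higher and whose lowest library at least 252-fold higher than 3 counts in the line would give (edgeR adjusted p = 0.017). On the same basis the tumours' mean of Ccr2 was at least 91.8-fold higher and the lowest library at least 71.1-fold higher (adjusted p = 0.0265, edgeR). For Ccr1 the bounds were 88.6-fold for the mean and 39.3-fold for the lowest library (adjusted p = 0.0314, edgeR).

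Cx3cr1 was at 0.503 CPM in the line and 40.1, 28 and 26.5 CPM in the tumours, a log2 difference of 5.96 ± 1.07 (edgeR adjusted p = 0.0182). Its ligand Cx3cl1 was at 8.42 CPM in the line and 211, 169 and 203 CPM in the tumours, without passing the test (edgeR adjusted p = 0.104). Cxcl14 was at 0.106 CPM in the line and 21.2, 26.3 and 11.5 CPM in the tumours (log2 difference 7.48 ± 1.17, edgeR adjusted p = 0.0125). Macrophage and endothelial markers, which are near 0 in the line (5.46 and 0.98 CPM summed), reached 237 to 387 and 262 to 441 CPM in the tumours, and host cells and ID8 cells cannot be told apart in these libraries.

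The line had ligands of its own. Cxcl12 was at 311 CPM in the line, above every other library, and at 79.6, 42 and 26.1 CPM in the orthotopic tumours (log2 difference -2.66 ± 1.06, edgeR adjusted p = 0.177). Ccl2 was at 103 CPM in the line and 6.41, 1.2 and 67.9 CPM in the tumours. The Cxcr2 ligands Cxcl5 (19.8 CPM in the line, 0.831, 0.798 and 0.368 CPM in the tumours) and Cxcl3 (5.88 and 0.0519, 0 and 0.105 CPM) and the Ccr6 ligand Ccl20 (7.97 and 0, 0 and 0.158 CPM) had their highest level of the 17 libraries in the line. None of these 5 passed the test in edgeR, with adjusted p of 0.0786 for Ccl20 and 0.0941 for Cxcl5, and DESeq2, which called 25 members and 16.8% of all genes here, called both lower in the tumours. Ccr7, the lymph node homing receptor, was at 14 CPM in the line, while 8 of the other 16 tested receptors had no count there.

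**Figure D5:**
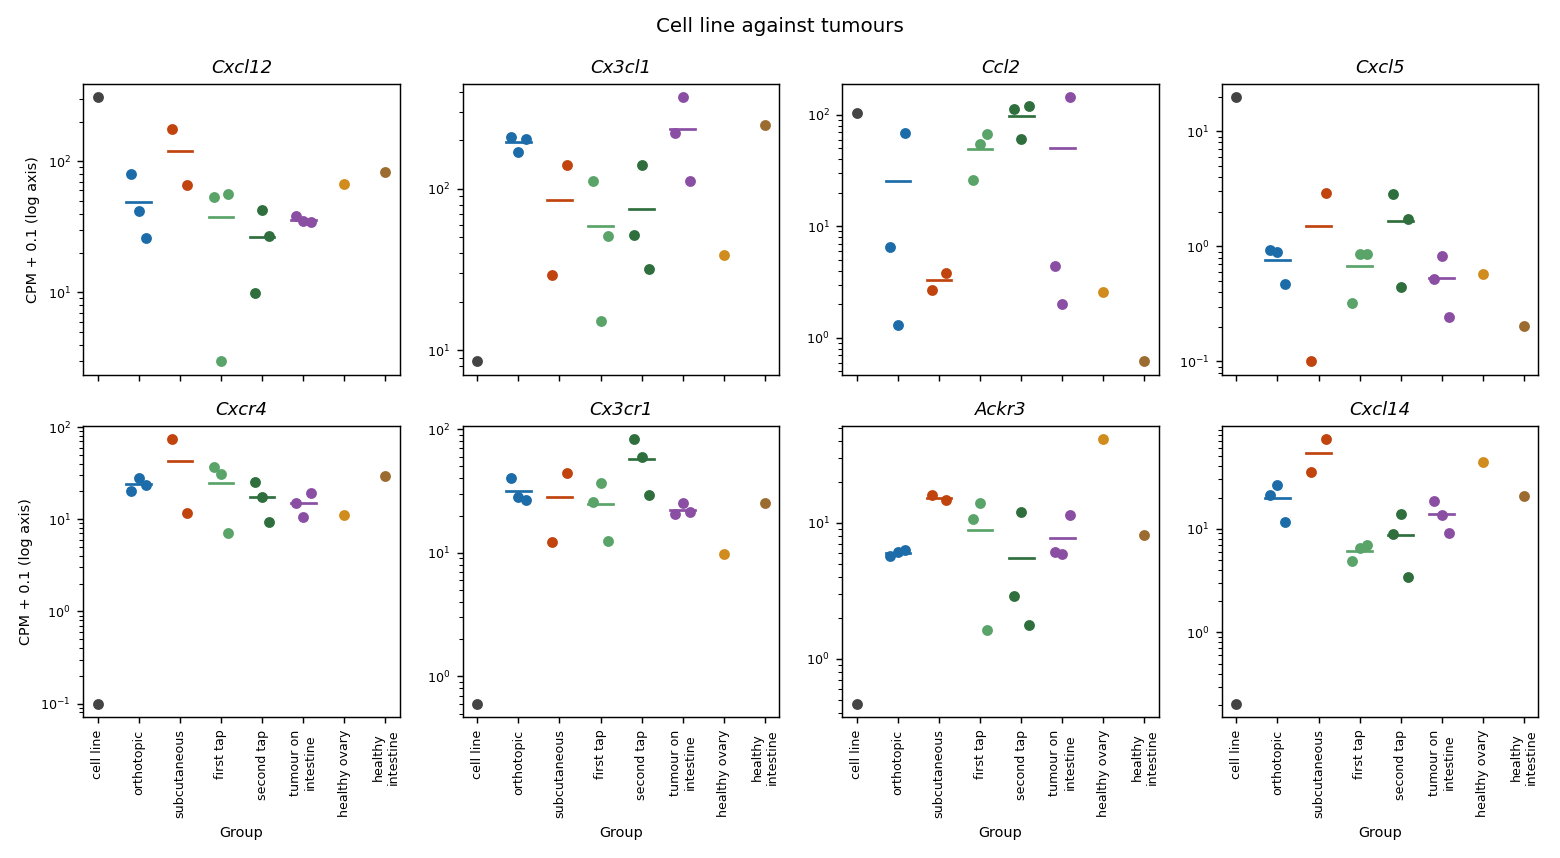
Level of 8 members in each library, as CPM + 0.1 on a log axis, by group, with a line at the mean of groups of more than 1 library. The cell line is highest for Cxcl12 and Cxcl5 and lowest for Cx3cl1, Cxcr4, Cx3cr1, Ackr3 and Cxcl14.

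Orthotopic tumours were set against healthy ovary, again 1 library. No member passed in edgeR, where 136 of all genes did (0.6%), with 0.00882% higher and 0.591% lower. All 3 tumours lay above the ovary in 11 of the 55 rows, where 27.4% of all genes did, and below it in 21, where 39.3% did. At an unadjusted p under 0.05 there were 7 members and 2541 genes, and DESeq2 called 3 members (3.44% of all genes), Ccl11 and Ccr3 lower and Ccl17 higher in the tumours. Ccl11 (eotaxin) was at 34.8 CPM in the ovary, above every other library, and 0.727, 1.3 and 0.211 CPM in the tumours (log2 difference -5.54 ± 1.15, edgeR adjusted p = 0.058). Its receptor Ccr3, of eosinophils, was at 4.35 CPM in the ovary and 0.0519, 0.0665 and 0.0526 CPM in the tumours (edgeR adjusted p = 0.101). Cxcl17 was at 42.2 CPM in the ovary and 2.96, 0.931 and 2.45 CPM in the tumours. Ackr3, the scavenger receptor of Cxcl12, was at 41.3 CPM and 5.61, 6.02 and 6.21 CPM. Ccl17, the other ligand of Ccr4, had 2 counts in the ovary and read 3.43, 3.52 and 28.6 CPM in the tumours, where replicate 3 was far above the others. The follicle markers given above, and adipocyte markers (722 CPM in the ovary, 18.5 to 244 CPM in the tumours), moved with this comparison, and their part was not tested.

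Orthotopic replicate 3 also held the highest Ccl2, Ccl6, Ccl9, Ccl24, Ccr1 and Ccr7 of the orthotopic group, with Ccl24, an eotaxin made by macrophages, at 0.208, 0.332 and 4.45 CPM and Ccr7 at 2.08, 1.6 and 13.3 CPM. The tumour on the intestine labelled replicate 3 was likewise highest in its group for Ccl2 (4.3, 1.91 and 145 CPM), Ccl6 (126, 55.7 and 258 CPM), Ccl9 (20.4, 10.2 and 82.7 CPM), Ccl24 (0, 4.2 and 8.47 CPM) and Ccr7 (1.89, 3.23 and 16.9 CPM). These are values of single libraries with no test.

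Several pairs had a ligand at hand and little receptor, or the reverse. Ccr7 was present at 1 CPM or more in 15 libraries, but its ligands Ccl19 and Ccl21a reached at most 0.0735 and 1.05 CPM. Those genes, with Ccl21b and Ccl21c, lie in near-identical copies, so reads may have been split among them or discarded, and their levels are uncertain. Xcr1, the receptor of cross-presenting dendritic cells, was highest in first tap replicate 2 (22 CPM) and healthy intestine (13.3 CPM), while its ligand Xcl1 stayed under 1 CPM in every library. Ccl8, the ligand of Ccr8 in mice, reached 36.6 and 12.9 CPM in the subcutaneous tumours, and Ccr8 stayed at 0.687 CPM or less. Ccl1, the other ligand of Ccr8, reached at most 0.994 CPM. Ccl24 was at 8.9, 71.4 and 24.5 CPM in the first tap and 43.1, 35.1 and 19.1 CPM in the second, where Ccr3 was at most 0.493 CPM.

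Other pairs were present nearly everywhere. Cxcl16, the membrane-bound ligand of Cxcr6, ran from 19.7 to 157 CPM over the 17 libraries, highest in first tap replicate 3, and Cxcr6, of resident T and NKT cells, from 1.46 to 18.8 CPM, highest in subcutaneous replicate 2. An antisense gene, Zmynd15, overlaps 18.3% of the exonic bases of Cxcl16. Cxcl12 was at 53.2, 2.87 and 56.1 CPM in the first tap and 38.4, 34.8 and 34.3 CPM in the tumours on the intestine, lowest of all in first tap replicate 2. Ccl27a, the skin T cell chemokine, ran from 1.63 to 10.8 CPM and was lower in the tumours on the intestine (1.89, 3.18 and 2.21 CPM) than in orthotopic tumours (7.42, 7.61 and 7.05 CPM) without passing the test (edgeR adjusted p = 0.0724).

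None of the atypical receptors passed the test in any of the 8 comparisons in edgeR with the 17 libraries. Without the 3 libraries with counts in over 30000 genes, edgeR called Ackr2 lower in both taps and Ccrl2 higher in the first tap, each against orthotopic tumours. In that setting the subcutaneous group is replicate 2 alone, where Ackr2 lay above the orthotopic tumours. Ackr1, which presents chemokines on venules, ran from 0 to 5.3 CPM and was highest in subcutaneous replicate 2, with 25.7% of its exonic bases shared with Cadm3 on the same strand. Ackr2 ran from 0 to 9.51 CPM, also highest in subcutaneous replicate 2. Ackr4, a scavenger of Ccl19, Ccl21 and Ccl25, ran from 3.38 to 25.7 CPM and was at 25.7, 14.2 and 17.6 CPM in the tumours on the intestine, above all 3 orthotopic tumours (10.5, 9.97 and 10.1 CPM). Ccrl2 was at 18.3, 14.6 and 9.68 CPM in the first tap against 1.35, 1.76 and 3.76 CPM in orthotopic tumours (edgeR adjusted p = 0.0757). Cxcl15, a lung chemokine, did not exceed 2.87 CPM in any library.

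Beyond the members, 31 genes of chemokine signalling and related chemoattractants were listed, of which 30 were found. In the first tap 2 of 30 rose against orthotopic tumours and none fell, where 0.688% of all genes rose: Pf4, the platelet and macrophage chemokine Cxcl4 (log2 difference 4.68 ± 0.90, edgeR adjusted p = 0.0337), and Pik3r5, a subunit of the phosphoinositide kinase that acts below chemokine receptors (3.57 ± 0.80, adjusted p = 0.0479). In the second tap 1 of 30 rose, where 0.516% of all genes did, again Pf4 (4.25 ± 0.88, edgeR adjusted p = 0.0466). In the tumours on the intestine 2 of 30 rose, a smaller share than the 10.4% of all genes. These were Dpp4, a peptidase of the gut brush border that trims chemokines (7.12 ± 1.16, edgeR adjusted p = 0.00264), and the phospholipase Plcb3 (2.94 ± 0.39, edgeR adjusted p = 0.000888). In the same comparison 1 fell, the chemokine-like cytokine Mif, by 2.14 ± 0.56 on the log2 scale (edgeR adjusted p = 0.0243). Against the cell line, 8 of 30 rose in orthotopic tumours, where 2.37% of all genes did: Rarres2 (chemerin), its receptor Cmklr1, the Mif receptor chain Cd74, and the signalling genes Pik3cg, Rgs2, Vav1, Adrbk2 and Gng2. The list's other comparisons had no call.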

How the data were processed

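RNA from 17 libraries was analysed from the authors' deposited table of raw read counts per Ensembl gene. Per the labels' protocols, total RNA was isolated with Trizol and sequenced from directional libraries. Per the submitters' processing notes, HISAT, HISAT2, featureCounts and DESeq2 were used, with hg19 and mm39 named as builds. Versions, annotation and the strand setting are not given in the sources used here. 1 column of per-sample counts matched no sample and was not used. Members and gene lists were chosen with earlier results of these data known.

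Counts were tested in R 4.3.3 with edgeR 4.0.16 (TMM, robust quasi-likelihood, 1 model of 8 groups, 9 residual degrees of freedom), in genes with more than 0.5 CPM in at least 2 libraries (22671 of 39055 with a count). P-values were adjusted by Benjamini-Hochberg over all tested genes, with a threshold of 0.05. Standard errors are the fold change divided by the root of the F statistic. Groups of 1 library borrow the spread of the others. Named are members past the threshold, all members of the textbook pairs, the atypical receptors, and Cxcl14, Cxcl15 and Cxcl17. Members outside this rule are named as values. 1 member and 1 marker gene, which the counts and sums include, are not reported here. Alternatives were DESeq2 1.42.0, relative log expression factors, no filter, a replicate block and leaving out libraries. The edgeR test was first tested on simulated data, and the DESeq2 test was not. Floors of 3 counts and intervals cover counting error only. Tables and figures used Python 3.11.15, pandas 2.3.3 and matplotlib 3.10.9.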

Additional observations from a re-analysis of the deposited data

How the results depend on the processing

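No direction reversed among the members called in edgeR with the 17 libraries, each in its own comparison, in any alternative. With DESeq2 the number of members called became 12 for subcutaneous against orthotopic tumours, 19 for the first tap, 13 for the second tap and 13 for the tumours on the intestine against orthotopic tumours, 25 for orthotopic tumours against the line and 3 against healthy ovary. Over all genes, DESeq2 called 2300, 2591, 2021, 5983, 3809 and 780 in the same order, 1 for the second against the first tap and 45 for the tumours on the intestine against healthy intestine. With relative log expression factors, which moved libraries by up to 0.13 on the log2 scale, the second tap had 2 members and 160 genes called. Without the filter on low counts, 2 members were called in each tap, 1 for subcutaneous tumours (140 genes) and 1 against healthy ovary. Without the 3 libraries with counts in over 30000 genes, an alternative chosen after seeing the data, 9 members and 1113 genes were called for subcutaneous tumours and 13 members and 1352 genes for the first tap.

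The replicate numbers shared between groups were not taken as pairs, since no comparison had a correlation of deviations over 0.1 in every pair (range -0.55 to 0.16). With the replicate number as a replicate block, 0 members were called in the first tap (55 genes) and 0 in the second (18 genes), 6 in the tumours on the intestine, and 16 genes but no member in subcutaneous tumours. Not every sample correlated best with its own number.

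Leaving out 1 library at a time gave 0 to 8 members and 18 to 793 genes for the first tap, 0 members and 1 to 76 genes for the second, 2 to 6 members and 1211 to 4085 genes for the tumours on the intestine, and 0 to 7 members and 0 to 987 genes for subcutaneous tumours. For orthotopic tumours it gave 5 to 6 members and 309 to 391 genes against the line, and 0 members and 3 to 17 genes against healthy ovary. For subcutaneous tumours the ranges include fits that left 1 library in the group. The cause of these changes was not tested. Groups hold 1 to 3 libraries, and the single libraries of the line, ovary and intestine have no spread of their own.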
